A study of Homo sapiens with 6 samples.

Results

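The replication-dependent histone clusters were followed at the 3' ends of their polyadenylated RNA in 6 libraries of HEK293 cells, an established human embryonic kidney line. The members are all deposited read ends on both strands in 4 intervals of hg19: chr6:26017000-26286000, chr6:27100000-27115000, chr6:27775000-27862000 and chr1:149784000-149860000. Plus-strand positions of HFE, a gene of iron metabolism that lies inside the first interval, were left out (chr6:26087000-26099000). This gave 1637 of the 2438055 distinct positions in the files, with 37334 reads. Grouping of neighbouring ends left 41 poly(A) sites in the intervals, of 49662 in the nuclear genome. All cells were grown in DMEM with 10% FCS, and siRNA-treated cells were harvested 3 days after transfection. In the alkaline set, RNA was broken by alkaline hydrolysis, and its 4 libraries came from cells without siRNA, with scrambled siRNA, with an siRNA against CF Im25 and with an siRNA against CF Im59. In the RNase I set, RNA was cut with RNase I, and its 2 libraries came from cells with scrambled siRNA and with an siRNA against CF Im68. The 3 targeted proteins are subunits of cleavage factor Im, which contacts the growing transcript ahead of its poly(A) site, and the series asks how this factor relates to the choice of the 3' end. Each group held 1 library, with 1 siRNA in each treated group. The loss of each target was not analysed here.

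Replication-dependent histone genes supply H1, H2A, H2B, H3 and H4 for new chromatin in S phase. Their main mRNA has no poly(A) tail: a conserved stem-loop, bound by SLBP, and a downstream element paired by U7 snRNA direct cleavage just past the stem-loop. A minor share of transcripts runs further and ends at an ordinary poly(A) signal, and only such tailed RNA is selected in A-seq. The values below are therefore read as polyadenylated ends and not as the stem-loop-ended mRNA. No read end was placed relative to a stem-loop here. In bulk samples, fewer cells with such RNA and less of it per cell cannot be told apart.

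The GENCODE 29 annotation, made on another build and used here for names, order and transcript sequences, lists 64 coding histone genes in the 4 corresponding runs of genes: 6 of H1, 15 of H2A, 16 of H2B, 13 of H3 and 14 of H4. Whether every one of them lies inside the hg19 limits was not checked. The histone stem-loop, whose paired arms enclose a T-rich loop, was searched on the sense strand and is capitalised in the sequences below. It stood in a transcript model of 27 of the 64 genes and in 52 of all 19669 protein-coding genes (0.264%). Many histone models without it were no longer than the coding sequence, for example 312 nt in HIST1H4A and 411 nt in HIST1H3A. A stem-loop past the coding sequence could not be found in such models, so the other genes cannot be said to lack these letters. In 19 genes a model went on for more than 100 nt past these letters. Of these, 14 had AATAAA or ATTAAA in the last 40 nt of such a model, 430 to 1761 nt past the stem-loop. Over all coding models, the signal stood in the last 40 nt of 22 of 75 histone models (29.3%), against 42.9% of 83064 models of the genome. Short models that end with the coding sequence are among the 75. The lower share therefore does not tell how often histone genes have such a signal. The following stretches show both kinds of end in 1 gene each of H2A, H2B, H3 and H4. They are 5′ to 3′ from GENCODE 29 models, capitals mark the stem-loop in the first line of each gene and the poly(A) signal in the second, and the second stretch is the end of the model.
HIST1H2AC stem-loop: ccaaaGGCTCTTTTCAGAGCCcccctaccg
HIST1H2AC end: agcctggcatgaggtAATAAAaggtaatgc
HIST1H2BE stem-loop: ccaaaGGCTCTTTTCAGAGCCactcacctt
HIST1H2BE end: taaaggaaaaAATAAAaccctcttccctct
HIST1H3H stem-loop: ccaaaGGCTCTTTTCAGAGCCacccacatg
HIST1H3H end: atgactaAATAAAatctgtataatccccac
HIST1H4E stem-loop: tcaaaGGCCCTTTTCAGGGCCgcccacagt
HIST1H4E end: ctctgaaAATAAAgtctttgttacttcctg
In these models the stem-loop and the end of the transcript were 1114 nt apart in HIST1H2AC, 430 nt in HIST1H2BE, 769 nt in HIST1H3H and 1022 nt in HIST1H4E.

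Library size and purity differed between the sets. The libraries held 5351980 to 18183644 reads, of which reads outside the nuclear chromosomes took 1.10% to 1.94% in the alkaline set and 4.20% and 8.39% in the scrambled and CF Im68 libraries of the RNase I set. All levels are therefore given as CPM, reads per 1000000 nuclear reads. A read marks 1 transcript end, so CPM does not grow with transcript length. Intervals are exact 95% intervals that cover counting error only. The sources used here do not give the removal of PCR copies or the handling of reads that match near-identical histone genes. Gene copies of this kind exist in the chr1 interval, where models of HIST2H3A and HIST2H3C were identical throughout and those of HIST2H2AA3 and HIST2H2AA4 over their last 100 nt. Between the outermost ends of that interval, 26.2 kb (chr1:149788900-149815116) and 24.1 kb (chr1:149821865-149845955) held no read in any library.

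Polyadenylated histone ends were a small share of each library, and the scrambled siRNA library of the alkaline set had the most. There they reached 998 CPM (978 to 1018; 9485 reads). Without siRNA they reached 641 CPM (629 to 653; 11471 reads). After CF Im25 siRNA the level was 541 CPM (527 to 555; 5699 reads), and after CF Im59 siRNA it was 350.4 CPM (340.1 to 361; 4360 reads). In the RNase I set the level was 362 CPM (346 to 379; 1856 reads) with scrambled siRNA and 375 CPM (364 to 386; 4463 reads) with CF Im68 siRNA. Within the alkaline set the order was thus scrambled, no siRNA, CF Im25 and CF Im59, with no overlap of counting intervals, while the intervals of both RNase I libraries overlapped. The 3 alkaline comparisons with scrambled siRNA share that control library, so a high level in it enters all of them. Against it, the level without siRNA was 1.56-fold lower (1.52 to 1.60), which is the difference measured with no targeting siRNA. The left-out HFE positions held 6 to 20 reads per library and 0.723 to 1.17 CPM, with overlapping intervals.

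**Figure D1:**
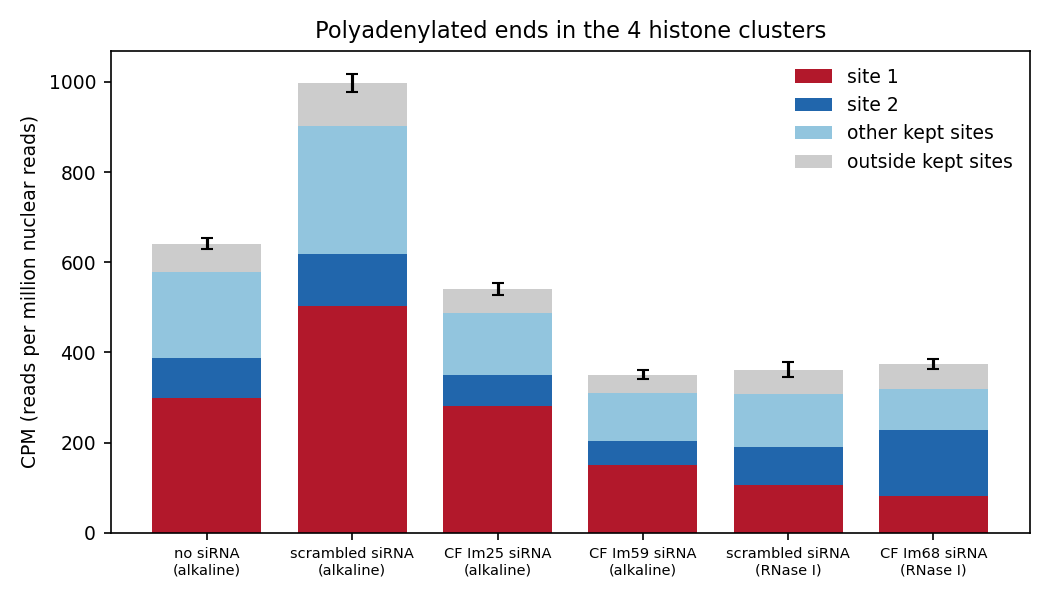
Stacked bars of CPM (vertical axis, reads per 1000000 nuclear reads) in the 4 histone intervals for each of the 6 libraries, with exact 95% counting intervals on the totals. The scrambled siRNA library of the alkaline set stands highest at 998 CPM, and the CF Im59 library is the lowest of that set at 350.4 CPM.

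Most of the signal came from few sites. A site is a peak position with all ends within 25 nt, kept at a mean of at least 1 CPM over the 6 libraries (for this filter alone scaled to all reads), and the 41 kept sites held 85.1% to 90.5% of the member reads of each library. By interval, in the order of the opening, 20, 5, 10 and 6 of them lay in each, 27 on the plus strand and 14 on the minus strand. Only 5 had a mean of 10 CPM or more, 16 had 2 to 10 CPM and 20 had less than 2 CPM. Over all 1637 positions, those inside the kept sites included, 1053 had reads in a single library and 90 had reads in all 6.

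The most used site was chr6:26055935 on the minus strand. In the annotation, HIST1H1C, a linker histone gene on the minus strand, is the neighbour of HFE on that side, and this is the nearest kept site there. The name rests on this order and on strand alone. The HIST1H1C model holds neither the stem-loop letters nor a signal in its last 40 nt. At 642 nt, however, the model is no longer than the coding sequence, so it cannot show how the gene ends. At the site, the level was 298.8 CPM without siRNA, 504 CPM with scrambled siRNA, 281 CPM after CF Im25 siRNA and 151 CPM after CF Im59 siRNA. In the RNase I set it was 106 CPM with scrambled siRNA and 82.6 CPM after CF Im68 siRNA. The alkaline scrambled library stood above all others, and both RNase I libraries stood below all alkaline ones. The site took 46.6%, 50.5%, 51.9% and 43.0% of member reads in the alkaline libraries in the same order. Its share in the RNase I set was 29.1% (scrambled) and 22.0% (CF Im68).

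The next site, chr6:27106073 on the minus strand, lay in the interval at 27.1 Mb, whose run of genes has only HIST1H2BJ and HIST1H2BK on that strand. Both encode H2B, a core histone, and which of them the site belongs to was not resolved. It had 89.9 CPM without siRNA, 114 CPM with scrambled siRNA, 68.9 CPM after CF Im25 siRNA and 52.9 CPM after CF Im59 siRNA. In the RNase I set it had 84.6 CPM with scrambled siRNA and 144.5 CPM after CF Im68 siRNA. This site was highest in the CF Im68 library, where the leading site was lowest.

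Further sites are given by hg19 position, since an annotation of that build was not used here. The plus-strand site chr6:27779077 had 38.9 CPM without siRNA, 37.7 CPM with scrambled siRNA, 18.2 CPM after CF Im25 siRNA and 19.5 CPM after CF Im59 siRNA, then 14.4 CPM (scrambled) and 6.13 CPM (CF Im68) in the RNase I set. Both alkaline controls were near 38 CPM here, so the excess of the scrambled library was not shared by every site. At chr6:26174778 on the plus strand the excess was large: the alkaline scrambled library had 54.1 CPM, against 19.3 CPM without siRNA, 9.01 CPM after CF Im25 siRNA, 11.1 CPM after CF Im59 siRNA, and in the RNase I set 2.15 CPM (scrambled) and 1.34 CPM (CF Im68). On chromosome 1, the plus-strand site chr1:149818042 had 14.1, 21.5, 12.2 and 7.88 CPM in the alkaline libraries (no siRNA, scrambled, CF Im25, CF Im59) and 6.63 and 2.94 CPM in the RNase I libraries (scrambled, CF Im68). Its minus-strand neighbour chr1:149816058 had 8.83, 16.3, 8.16 and 6.03 CPM, then 11.5 and 3.53 CPM, in the same order. Both chromosome 1 sites were lowest in the CF Im68 library.

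The other sites of the 10 most used were weaker, and are given in that same order. At chr6:26139184 (plus) the levels were 14.3, 16.9, 6.45 and 4.66 CPM in the alkaline set and 4.49 and 4.62 CPM in the RNase I set, so both controls of the alkaline set stood above the knockdowns. Site chr6:26171575 (plus) had 6.82, 11.6, 4.08 and 3.13 CPM, then 7.41 and 10.1 CPM. At chr6:27823353 (plus) there were 13.1, 9.26, 2.85 and 6.27 CPM, then 1.76 and 0.504 CPM, with the cells without siRNA highest. On the other side of HFE, chr6:26104532 (plus) is the nearest kept site, and HIST1H4C, a plus-strand gene of the core histone H4, is the next gene there in the annotation. This link too rests on order and strand alone. It had 3.07, 3.37, 3.70 and 2.09 CPM in the alkaline set and 14.2 and 15.2 CPM in the RNase I set. It was the only one of the 10 in which both RNase I libraries exceeded all alkaline libraries.

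**Figure D2:**
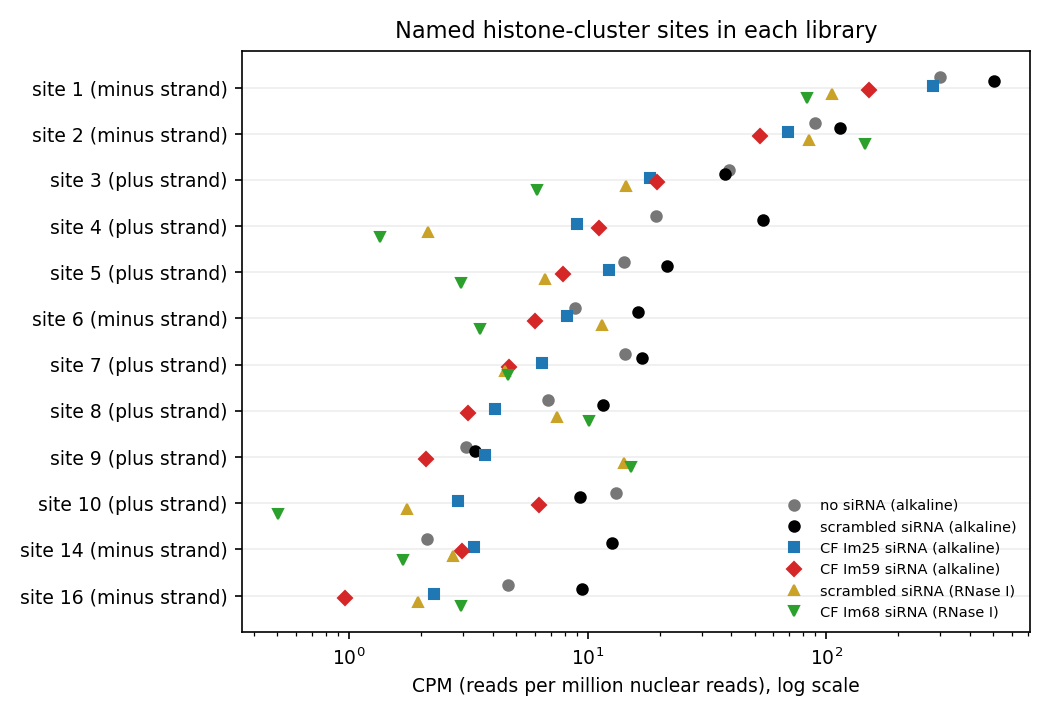
CPM on a log axis (horizontal) at the 12 named histone-cluster sites (rows, numbered by rank of level, with strand), 1 symbol for each of the 6 libraries. The alkaline scrambled library is rightmost at most rows, and sites 1 and 2 differ in where the CF Im68 library falls (82.6 and 144.5 CPM).

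After CF Im59 siRNA, polyadenylated ends in the histone intervals were lower than in either alkaline control. The total was 2.85-fold lower than with scrambled siRNA (2.75 to 2.95) and 1.83-fold lower than without siRNA (1.77 to 1.89). A site was called lower or higher when its levels differed 2-fold or more, 1 of both libraries had 50 reads or more and the interval left out 1. This is a rule of size, and no replicate error stands behind it. Since 1 library with 50 reads was enough, a site could enter the count only through the library where it was high. At chr6:26281282, for example, the scrambled library had 90 reads, against 12 after CF Im59 siRNA. The background was counted under the same rule. Against scrambled siRNA, 10 of 14 sites with enough reads were called lower, against a background of 12.5% of all nuclear sites, and 0 were called higher (background 10.8%). All 14 had a ratio under 1, against 50.9% of all sites, and the median log2 ratio was −1.59 against −0.02 over all sites. The alkaline scrambled library, the highest at 25 of the 41 kept histone sites (61.0%, against 30.4% of all sites), is the control here, and its part in the count was not tested. Against no siRNA, 10 of 20 sites were called lower (background 9.37%) and 0 higher (5.52%), all 20 had a ratio under 1 (55.1% of all sites), and the median log2 ratio was −1.02 against −0.07. CF Im59 was the lowest of the 4 alkaline libraries at 27 of the 41 kept sites (65.9%, against 23.7% of all sites).

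The leading site chr6:26055935 was 3.34-fold lower after CF Im59 siRNA than with scrambled siRNA (3.17 to 3.53). Against no siRNA it was 1.98-fold lower (1.88 to 2.09), just short of the rule. Site chr6:27106073 was 2.15-fold lower than with scrambled siRNA (1.95 to 2.37), and 1.70-fold lower than without siRNA. With chr6:26055935 left out, the total was still 2.47-fold lower than with scrambled siRNA (2.36 to 2.60). The largest called ratio was at chr6:26281282 on the minus strand. It had 4.64 CPM without siRNA, 9.47 with scrambled siRNA, 2.28 after CF Im25 siRNA and 0.964 after CF Im59 siRNA, and 1.95 (scrambled) and 2.94 CPM (CF Im68) in the RNase I set. The CF Im59 level, from 12 reads, was 9.82-fold lower than with scrambled siRNA (5.35 to 19.7) and 4.81-fold lower than without siRNA (2.61 to 9.68).

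CF Im25 siRNA gave a smaller difference that depended on the control. The total was 1.85-fold lower than with scrambled siRNA (1.79 to 1.91) and 1.19-fold lower than without siRNA (1.15 to 1.22). Against scrambled siRNA, 8 of 15 sites were called lower (background 16.9%) and 0 higher (19.2%), 12 of 15 had a ratio under 1 (49.2% of all sites), and the median log2 ratio was −1.05 against 0.02. Against no siRNA, 7 of 21 were called lower (16.9%) and 1 higher (14.4%), 17 of 21 were under 1 (52.9%), and the median was −0.59 against −0.06. The site called higher was chr6:26021877 (plus), with 4.74 CPM after CF Im25 siRNA, 1.56 CPM without siRNA and 3.16 CPM with scrambled siRNA, and it was named after its values were seen. At the leading site chr6:26055935, CF Im25 siRNA was 1.80-fold lower than scrambled siRNA, and 1.07-fold lower than no siRNA (1.02 to 1.11).

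Some sites were called lower after CF Im25 siRNA against both controls. At chr6:26174778 the ratio was 6.00-fold lower than with scrambled siRNA (4.81 to 7.55) and 2.15-fold lower than without siRNA (1.71 to 2.72). For comparison, CF Im59 siRNA was 4.88-fold (4.03 to 5.93) and 1.74-fold lower there. At chr6:27779077 both controls gave a similar answer, 2.07-fold lower (1.73 to 2.48) and 2.14-fold lower (1.82 to 2.52). Site chr6:27823353 was 3.25-fold lower than with scrambled siRNA (2.13 to 5.10) and 4.61-fold lower than without siRNA (3.15 to 6.99). Site chr6:26281282 was 4.16-fold lower (2.63 to 6.83) and 2.04-fold lower (1.28 to 3.36).

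In the difference between the alkaline controls themselves, 3 of 21 sites were called lower without siRNA (background 4.67%) and 0 higher (5.81%). 17 of the 21 had a ratio under 1, against 50.1% of all sites, and the median log2 ratio was −0.24 against 0.00. The 3 sites were chr6:26173272, chr6:26174778 and chr6:26281282, which are also all of the sites called at 4-fold or more in a knockdown relative to that control. At chr6:26173272 (minus) the scrambled library alone was high, with 12.6 CPM against 2.12 CPM without siRNA, 3.32 CPM after CF Im25 siRNA and 2.97 CPM after CF Im59 siRNA, and in the RNase I set 2.73 CPM (scrambled) and 1.68 CPM (CF Im68). The 4.25-fold lower level after CF Im59 siRNA and the 3.80-fold lower level after CF Im25 siRNA at this site turned into ratios of 1.40 and 1.56 when no siRNA was the control.

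**Figure D3:**
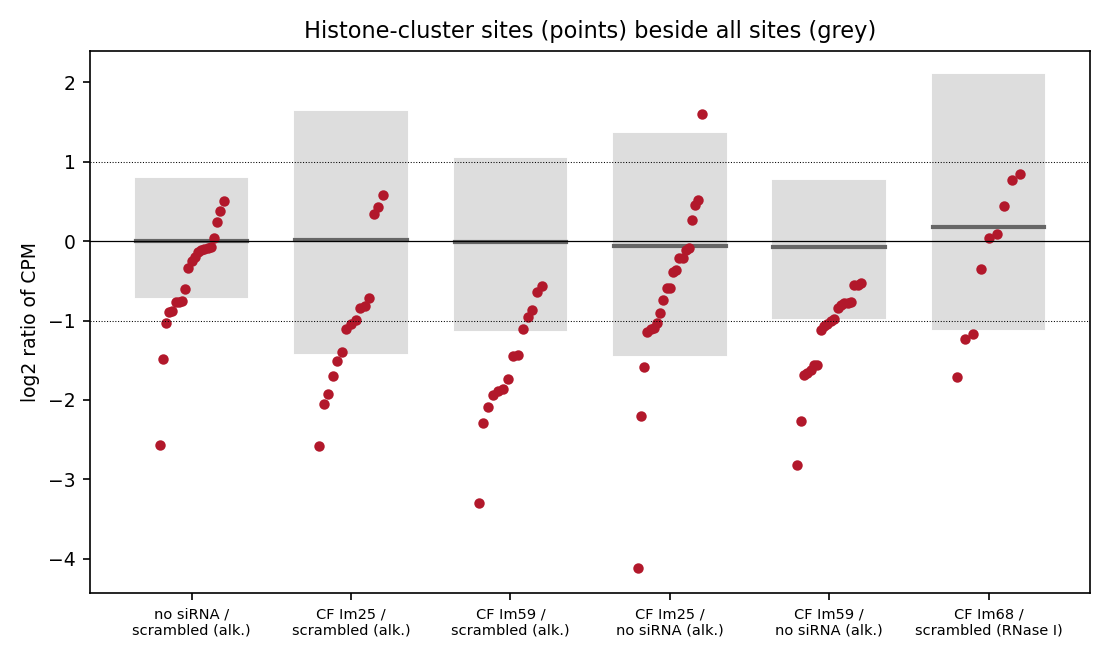
Log2 ratio of CPM (vertical axis) at each histone-cluster site with enough reads (points) in 6 comparisons, beside the median and the 10th to 90th percentile of all nuclear sites (grey). The points lie under the median of all sites at every tested site for CF Im59 siRNA against either control, and on both sides of it for CF Im68 siRNA.

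After CF Im68 siRNA, compared in the RNase I set, the total scaled to nuclear reads differed by less than the counting error. The ratio to scrambled siRNA was 1.04 (0.981 to 1.09). With TMM scaling the ratio was 1.17, above this interval. The ratio by nuclear reads rested on the balance of the leading sites. It was 1.14 (1.07 to 1.21) without chr6:26055935, and 0.859 (0.792 to 0.933) without chr6:27106073 as well. Of 9 sites with enough reads, 3 were called lower (background 11.3%) and 0 higher (23.4%). With TMM scaling, which moves all ratios in this comparison up by 0.18 on the log2 scale, 2 were called lower and 1 higher. The shares of all sites called under that scaling are not given here, so these counts stand without a background. 4 of the 9 had a ratio under 1 (41.2% of all sites), and the median log2 ratio was 0.04 against 0.18. The sites called lower were chr6:27779077 (2.35-fold, 1.68 to 3.30), chr1:149816058 (3.26-fold, 2.16 to 4.97) and chr1:149816369 on the plus strand, with 6.22 CPM against 14.0 CPM. Site chr6:27106073 had a ratio of 1.71 (1.54 to 1.90), and chr6:26227700 (plus) one of 1.80 (1.23 to 2.70; 11.9 against 6.63 CPM). Both were under the 2-fold rule, and the second passed it with TMM scaling. At chr6:26055935 the level was 1.28-fold lower (1.15 to 1.42), and at chr6:26104532 the ratio was 1.07 (0.809 to 1.42).

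The 4 intervals did not move by the same amount, and an interval total can rest largely on 1 site. In the first interval, chr6:26055935 held 4791 of 6732 reads in the alkaline scrambled library. After CF Im59 siRNA the level relative to scrambled siRNA was 3.28-fold lower at 26.0 to 26.3 Mb of chromosome 6 (3.14 to 3.43), 2.16-fold lower at 27.1 Mb (1.98 to 2.37), 1.75-fold lower at 27.8 Mb (1.58 to 1.94) and 3.29-fold lower on chromosome 1 (2.82 to 3.85). Without siRNA the same intervals were 1.73-fold, 1.32-fold, 1.02-fold and 1.60-fold lower than with scrambled siRNA. Relative to no siRNA, CF Im59 siRNA gave 1.90-fold, 1.64-fold, 1.71-fold and 2.06-fold lower levels, a narrower range. After CF Im25 siRNA the levels were 1.91-fold, 1.65-fold, 1.69-fold and 1.94-fold lower than with scrambled siRNA. Relative to no siRNA they were 1.10-fold, 1.25-fold, 1.65-fold and 1.21-fold lower, so that only the interval at 27.8 Mb kept nearly the same ratio with both controls. After CF Im68 siRNA the interval at 27.1 Mb was higher, from 93.4 to 154.6 CPM (ratio 1.66, with an interval up to 1.83). There chr6:27106073 alone held 434 of 479 reads with scrambled siRNA and 1721 of 1841 after CF Im68 siRNA. The plus strand of that interval had 2.93 CPM (15 reads) and 2.52 CPM (30 reads). The interval on chromosome 1 was 2.15-fold lower, from 37.4 to 17.4 CPM (1.76 to 2.63). The first interval was 1.13-fold lower (1.05 to 1.22), and that at 27.8 Mb had a ratio of 0.857 (0.724 to 1.02).

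Choice between tandem sites was compared where a same-strand unit (sites with gaps of up to 5 kb) had a pair of main sites. The 41 sites formed 28 units, of which 20 had 1 site and 7 gave a pair. A unit can join neighbouring histone genes and is not a gene. A pair was called shifted at a change of 20 percentage points in its proximal share, the share of pair reads at the upstream site. Of the pairs with enough reads, 0 of 7 shifted proximally without siRNA relative to scrambled siRNA (background 1.22%), 0 of 6 after CF Im25 siRNA (18.5%), 0 of 7 after CF Im59 siRNA (2.51%) and 0 of 2 after CF Im68 siRNA (24.8%). Distal shifts were also 0 in each (2.46%, 2.83%, 4.85% and 1.87% of all pairs). The counts were 0 in both directions relative to no siRNA too, for 6 pairs after CF Im25 siRNA (20.5% proximal and 2.01% distal over all pairs) and 7 after CF Im59 siRNA (1.64% and 2.15%). So few pairs leave the share of shifted histone pairs poorly known. Relative to scrambled siRNA, the changes after CF Im25 siRNA ran from −7.37 points at the plus-strand pair on chromosome 1 to 13.5 points (5.72 to 22.1) at chr6:26171575 and chr6:26174778, where the upstream share was 17.6% with scrambled siRNA and 31.2% after CF Im25 siRNA. After CF Im59 siRNA the pair chr6:26198110 and chr6:26202923 changed most relative to scrambled siRNA, from 4.62% to 18.8% (14.1 points, 2.97 to 25.8). Relative to no siRNA, the minus-strand pair chr1:149819650 and chr1:149816058 changed most in both knockdowns, from 24.4% to 10.4% after CF Im25 siRNA (−14.0 points, −21.8 to −4.62) and to 6.25% after CF Im59 siRNA (−18.2 points, −25.3 to −8.90). The pair chr6:26198110 and chr6:26202923 changed there by 8.46 and 17.8 points. Its upstream site held few reads: 1 without siRNA, 3 with scrambled siRNA, 9 after CF Im25 siRNA and 12 after CF Im59 siRNA. After CF Im68 siRNA both tested pairs changed by under 2 points, with 67.9% and 67.9% at the chromosome 1 pair (−0.03 points, −12.3 to 12.3).

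At several histone sites the libraries of the alkaline and RNase I sets differed by more than any siRNA did. This comparison of both scrambled siRNA libraries was chosen after values were seen, and preparation and sequencing may differ between them as well, which cannot be told apart. The RNase I library was 2.76-fold lower in total (2.62 to 2.90), 1.93-fold lower without chr6:26055935. Of 16 sites, 11 were lower (background 40.2%) and 2 higher (27.7%), and 14 had a ratio under 1 (58.8% of all sites). The median log2 ratio was −1.56 against −0.46 over all sites, so all sites were also lower at the median. The leading site was 4.78-fold lower (4.37 to 5.23), chr6:26174778 was 25.2-fold lower (14.0 to 50.8), and chr6:26104532 was 4.23-fold higher (2.75 to 6.62). At the plus-strand pair of chromosome 1, the upstream share rose from 18.4% to 67.9% (49.5 points, 38.8 to 58.7; 1 of 3 tested pairs, background 24.9%). Both RNase I libraries exceeded all 4 alkaline ones at 5 of the 41 kept sites (12.2%, against 25.5% of all sites) and fell below them all at 20 (48.8%, against 33.1%). Ratios for CF Im68 siRNA were taken only within the RNase I set, and where its levels stand beside alkaline ones the method differs too.

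Within the leading sites the main cleavage positions were shared by all 6 libraries. At chr6:26055935, the peak position took 44.4%, 44.9%, 40.4% and 42.9% of the site's reads in the alkaline libraries (no siRNA, scrambled, CF Im25, CF Im59) and 43.4% and 44.2% in the RNase I libraries (scrambled, CF Im68). A second position 2 nt downstream took 33.7%, 31.5%, 34.7% and 32.5%, then 36.6% and 32.6%. The position 3 nt upstream took 8.40% to 9.90% in the alkaline set, against 4.62% and 6.20% in the RNase I set. Thus the site has a main and a second cleavage position whose shares differed by at most a few points between siRNAs, while its total differed 3.34-fold. Site chr6:27106073 was narrower, with 82.7% to 90.9% of its reads at 1 position. There the position 2 nt upstream took 0.551% to 1.55% in the alkaline set, against 6.22% (scrambled) and 5.23% (CF Im68) in the RNase I set.

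**Figure D4:**
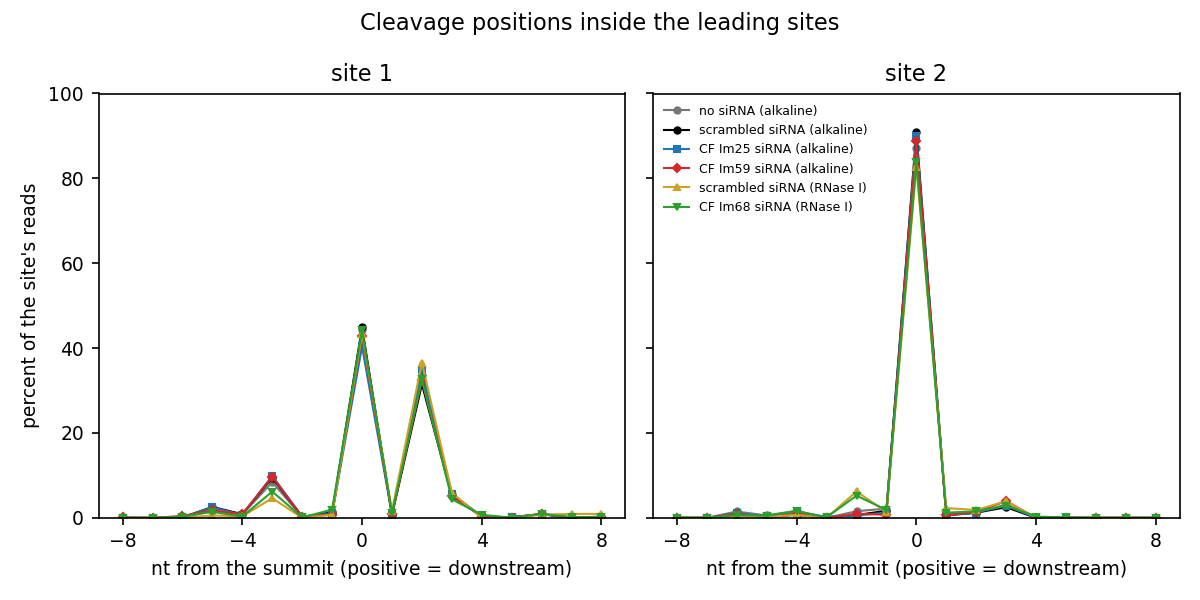
Percent of the reads of a site (vertical axis) at each nucleotide around its peak position (horizontal axis, positive is downstream) in the leading sites, 1 line per library. The first site has 2 positions of heavy use 2 nt apart in every library, and the second has 1 position with 82.7% to 90.9% of reads.

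Read ends lay at fewer positions after CF Im59 siRNA than in the other alkaline libraries. The number of positions with reads was 638 without siRNA, 615 with scrambled siRNA, 523 after CF Im25 siRNA and 427 after CF Im59 siRNA, and in the RNase I set 332 (scrambled) and 528 (CF Im68). These numbers depend on library size. Expected at a common depth of 5351980 library reads, they were 361, 453, 354 and 274 in the alkaline set, then 332 and 318. At that depth the scrambled alkaline library had the most positions, where the library without siRNA had the most before, and the CF Im59 library had the fewest. This depth counts library reads and leaves member reads unequal, so fewer positions are not separate from fewer member reads. Reads outside the kept sites followed the totals: they were 1.76-fold lower after CF Im25 siRNA (1.58 to 1.96) and 2.35-fold lower after CF Im59 siRNA (2.10 to 2.62) than with scrambled siRNA, and the ratio was 1.02 (0.885 to 1.18) after CF Im68 siRNA.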

How the data were processed

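Each deposited file gives, for 1 A-seq library, counts of reads per cleavage position and strand, which the authors left unscaled. The submitters' processing notes name hg19 and GRCh37; for the aligner, read filters, duplicate removal and internal priming, nothing was given in the sources used here. Member reads were summed and divided by nuclear reads (5127442 to 17894900 per library). Sites were called once on the 6 libraries pooled at equal weight (25 nt window, mean CPM of at least 1). Ratios have exact conditional binomial intervals, differences of shares Newcombe intervals, both at 95%. With 1 library per group no test was made. Each knockdown was compared with the scrambled library of its own fragmentation method, and also with no siRNA in the alkaline set. Named sites are the 10 with the highest mean level and every site past the 2-fold rule that changed by 4-fold or more in a knockdown. Positions at a common depth are expected numbers when every library is thinned to 5351980 reads. Members, intervals and lists were chosen with earlier results of these data known. Alternatives were TMM and median of ratios scaling, other windows, read minimums, folds and level minimums, the other control, and totals without the leading sites. Python 3.11.15 with numpy 2.4.6, pandas 2.3.3 and scipy 1.17.1 was used, and edgeR 4.0.16 in R 4.3.3 for TMM factors only. The scripts' ratios and calls were tested on simulated data. Replication-independent histone genes and histone 3' end processing factors were not analysed here.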

Additional observations from a re-analysis of the deposited data

How the results depend on the processing

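The total ratio of no siRNA to scrambled siRNA (0.642) was 0.692 with TMM scaling, 0.700 with median of ratios scaling, 0.693 without the leading site, 0.663 without both leading sites and 0.796 when distinct member positions, expected with every library thinned to 5351980 reads, were counted in place of reads. For CF Im25 (0.542) it was 0.843 with no siRNA as control, 0.502 without both leading sites and 0.781 by distinct positions. For CF Im59 (0.351) it was 0.376 with TMM, 0.377 with median of ratios, 0.547 against no siRNA, 0.404 without the leading site, 0.386 without both and 0.604 by distinct positions. For CF Im68 (1.04) it was 1.17 with TMM, 1.18 with median of ratios, 1.14 without the leading site, 0.859 without both and 0.958 by distinct positions. Distinct positions also depend on the number of member reads, which the thinning left unequal, so they are no independent check of the totals. Leaving out both leading sites was chosen after seeing the data. Sites called lower moved with the minimum of reads, which also changes how many are tested. At 20 reads they were 10 of 38 for no siRNA (8.41% of all sites at that minimum), 15 of 37 for CF Im25 (18.9%), 25 of 37 for CF Im59 (15.6%) and 5 of 18 for CF Im68 (15.8%). At 100 reads they were 5 of 9 for CF Im25 (15.3%) and 0 of 5 for CF Im68 (9.03%). At a 1.5-fold rule, no siRNA had 9 of 21 lower (13.6%). Sites called higher for CF Im68 (0) were 1 with TMM and with median of ratios, without a share of all sites for these scalings. At 20 reads they were 1 of 18 (19.4%), and at 1.5-fold 2 of 9 (31.9%). For CF Im25 (0) there was 1 against no siRNA. An alternative was taken as unmoved when a ratio or share stayed inside the counting interval of the reported value or a count within 1.5 times of it. By this measure 103 values of totals, shares, counts and pairs were unmoved, many of them counts of 0 that remained 0, and 31 moved. Of single sites, 78 were unmoved, 24 moved and 2 reversed: at chr6:26173272, CF Im25 and CF Im59 gave 1.56 and 1.40 against no siRNA. Where not stated by the alternative itself, the cause was not tested. No paired analysis was possible because each group held 1 library, and no replicate could be left out. Depth limits the weak sites most, since 20 of 41 had under 2 CPM and the RNase I scrambled library held 1856 member reads.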

Other observations

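A pair of weaker sites, chosen as a pair after values were seen, differed between the knockdowns. Of its sites, chr6:27823353 was already named above by its level, and chr6:27821532 was named after its values were seen. In the plus-strand unit of chr6:27821532 and chr6:27823353, the upstream site had 59 reads without siRNA, 24 with scrambled siRNA, 2 after CF Im25 siRNA and 13 after CF Im59 siRNA, and the downstream site had 235, 88, 30 and 78. The pair held too few reads after CF Im25 siRNA for the rule on shares, and both of its sites were lowest in that library among the alkaline ones.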
